A study of Mus musculus with 5 samples.

Results

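RXRα binding in alveolar macrophages (AMs) was examined at the regions that were bound in both WT libraries and carried a DR1 element at the summit of their strongest peak. A DR1 element is a direct repeat of the hexamer AGGTCA with 1 free base between the copies (AGGTCANAGGTCA, read on both strands). A region qualified when peaks of the WT libraries WT A and WT G overlapped by at least 1 bp and a DR1 match with at most 2 mismatches lay wholly within 50 bp of the summit of the peak with the highest −log10 q. Of the 3423 regions with a peak in both WT lists, 217 qualified (6.34%, 95% exact binomial interval 5.55 to 7.21). They are called DR1 regions here, and the other 3206 are called other shared regions. The rule used −log10 q only to pick which WT summit was read. Fold enrichment, KO peaks, location and all other motifs were not used to choose the members, though fold enrichment shares its pileup with −log10 q.

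AMs were obtained by bronchoalveolar lavage and FACS, and RXRα was profiled by HT-ChIPmentation, an assay that tags antibody-bound chromatin on the beads with the transposase Tn5. The WT libraries came from CD11cCre- Rxrabfl/fl mice and the KO libraries, KO A and KO G, from CD11cCre+ Rxrabfl/fl mice. Both groups carried floxed alleles of Rxra and Rxrb, and only the KO mice carried Cre, whose driver, CD11c, is also expressed by dendritic cells. The methods of the study give 9-week-old mice, and an input from CD11cCre- Rxrabfl/fl mice, the last of the 5 samples, served for peak calling. Each genotype had 2 ChIP libraries, and no source used here says whether they came from different mice or pools. The p-values therefore refer only to the arrangement of these libraries and give no measure of the spread between mice. Peaks measure binding and not expression, so neither the labelled cell type nor the deletion could be checked by gene levels.

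RXR is the shared partner of many nuclear receptors, and the spacing between the hexamers of their elements differs between partners. DR1 is the element of the PPAR-RXR heterodimer, in which PPAR occupies the 5′ hexamer and RXR the 3′ hexamer, and it is also bound by RXR homodimers. LXR-RXR is known for DR4 and RAR-RXR for DR5 and DR2. PPARγ is the receptor best known for AM differentiation and for handling of surfactant lipids in these cells.

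The elements themselves are shown first, because every later result refers to them. Each is read 5′ to 3′ in the orientation of the repeat with 6 bases on each side, from the mouse genome GRCm38 (mm10), and capitals mark both hexamers. The first group holds the 3 elements with no mismatch, in introns of Rassf5, Smg6 (nearest gene Hic1) and Rrbp1. Rrbp1 was added to the regions chosen by the naming rule after its values were seen.
Rassf5 intron, chr1:131188678-131188690, minus strand: gccattAGGTCAcAGGTCActgagt
Hic1, in an intron of Smg6, chr11:75137175-75137187, plus strand: ggcataAGGTCAgAGGTCAtagtag
Rrbp1 intron, chr2:144009622-144009634, minus strand: gtcctcAGGTCAgAGGTCAggactg

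The next group holds the elements of the 5 DR1 regions with a peak in both KO lists, each with 2 mismatches, 1 in each hexamer. The Cebpb window held 3 matches and the Pdk4 window 2, and the one with the fewest mismatches and then nearest to the summit is shown.
Cebpb, in an intron of a noncoding transcript 35.1 kb downstream of the TSS, chr2:167724072-167724084, minus strand: ccacgcAGGCCAcAGGGCAcagggc
Trim25, intergenic, chr11:89024387-89024399, minus strand: gctcatAGGACAaAGTTCAgttaca
Pdk4, intergenic, chr6:5509908-5509920, plus strand: tttagtAGGTGAaGGGTCActcttg
Plin2, intergenic 20.6 kb upstream of the TSS, chr4:86690272-86690284, plus strand: aaaactAGGGCAaAGTTCAgagcct
Shc3 intron, chr13:51553575-51553587, plus strand: tgaacgAGGGCAaAAGTCAtgccga

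The third group holds the elements nearest to genes of the lists of receptor targets, macrophage transcription factors and AM genes that are not shown above.
Plin2, intergenic 2.3 kb upstream of the TSS, chr4:86671991-86672003, minus strand: ttttgtAGGTGAaAGGGCAaagaaa
Abca1 intron, chr4:53159238-53159250, plus strand: acctccAAGTCAgAGGCCAacacaa
Mylip, in an intron of a noncoding transcript, chr13:45266869-45266881, minus strand: atatatAGGTCAgAGTTGActgggt
Rara intron, chr11:98943612-98943624, minus strand: gagagtAGGTGAaAGGCCAgggggc
Klf6, intergenic, chr13:5875715-5875727, plus strand: actttcAGGTCAaAAGCCAggaaca
Tcf7l2, in an intron of a noncoding transcript, chr19:55660203-55660215, minus strand: gggaagAGGTCAgAGTTCAaatata
Bhlhe40, intergenic, chr6:108570853-108570865, plus strand: tagcaaAGGTCAcAGGGCAgggggg
Tgfbr2, intergenic, chr9:116077587-116077599, minus strand: taaaccATGACAaAGGTCAtaagta

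The last group gives 4 elements with 1 mismatch from the strongest such regions, to show how near they come to the consensus.
Itpkb intron, chr1:180404421-180404433, minus strand: agaaggAGCTCAaAGGTCAcctttg
Abcd2 intron, chr15:91173195-91173207, plus strand: actctgAGGTTAaAGGTCAgtttca
Baz1b promoter, chr5:135187086-135187098, minus strand: ctgaaaAGGTGAaAGGTCAcgttat
Cd9, at the transcript end, chr6:125484854-125484866, minus strand: gggtatAGGTCAgAGGACAgatgtg

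The first question was how often such an element lies at the summit. Windows of the same length, 101 bp, centred 500 bp to either side of the summits held a match in 106 of 6846 cases (1.55%), and 1.13% of all 25340106 such windows in the genome did. For matches with at most 1 mismatch the share was 1.26% of the shared regions (43 regions) and 0.152% of genome windows. Matches with at most 2 mismatches were densest in the bin at the summit. In bins of 40 bp there were 29.2 matches per 1000 shared regions at the summit of the strongest peak, and 25.1 and 27.5 in the bins next to it. At 1000 bp towards lower and higher coordinates there were 8.76 and 6.72, beside 5.25 for the whole genome. The central bin held 32.4 around WT A summits and 26.0 around those of WT G. For the fewer matches with at most 1 mismatch the bin at the summit was not the highest around the strongest peak. It held 5.26, and the bins at 40 and 80 bp towards higher coordinates held 5.55. Nor was it the highest around WT G summits, with 3.21 there and 4.38 at 80 bp.

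**Figure D1:**
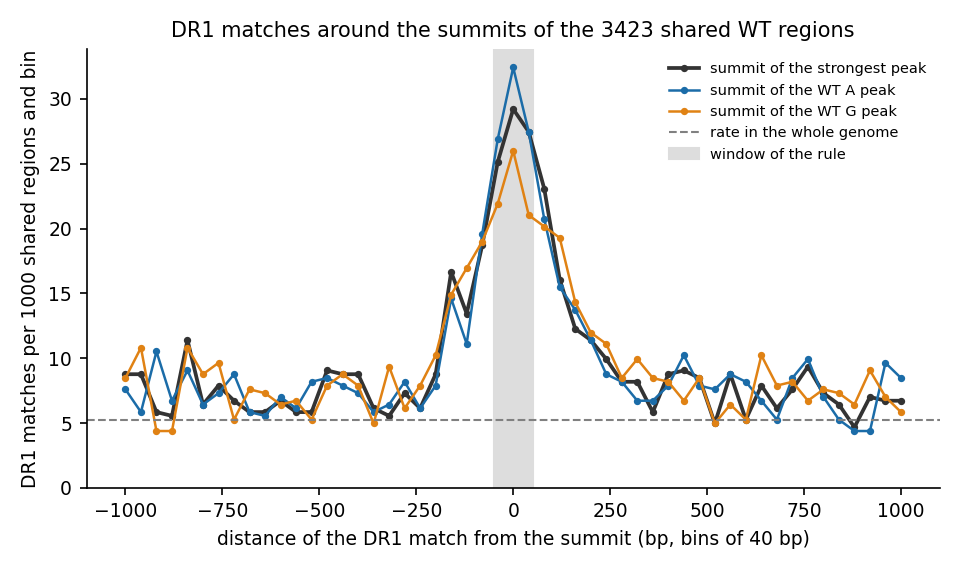
DR1 matches with at most 2 mismatches per 1000 shared WT regions (y) in bins of 40 bp by distance from the summit (x, bp), for the summit of the strongest peak, of the WT A peak and of the WT G peak. All lines peak in the central bin, at 29.2, 32.4 and 26.0, and are lower at 1000 bp, where the line of the strongest peak is at 8.76 and 6.72, above the genome rate of 5.25 (dashed); the shaded band is the window of the rule.

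Within the rule, matches with more mismatches were more numerous. There were 3 with no mismatch, 40 with 1 and 174 with 2, and the 174 carried 1 mismatch in each hexamer in 102 cases, both in the 5′ hexamer in 38 and both in the 3′ hexamer in 34. The 5′ hexamer was intact in 60 regions and the 3′ hexamer in 58. The repeat lay on the plus strand in 98 regions, and 12 windows held more than 1 match. Of the matches, 14 (6.45%, interval 3.57 to 10.6) lay in soft-masked repeat sequence, against 24.8% of the 335679 matches in the genome. Just outside the mismatch limit were 507 regions whose best match had 3 mismatches, and just outside the distance limit were 160 regions with a match within 100 bp that did not lie within 50 bp.

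The free base and the bases around the repeat were then read, since the rule did not constrain them. The free base was A in 91 of the 217 matches (41.9%, interval 35.3 to 48.8), against 26.4% of the 106 flank matches and 23.9% of matches in the genome. It was G in 39.2% of the DR1 regions and 39.5% of genome matches, T in 11.1% and 13.6%, and C in 7.83% and 22.9%. At the base before the repeat, T stood in 34.1% of the DR1 regions and 17.4% of genome matches. At the third base before the repeat, A stood in 35.0% and 23.1%, and at the fourth in 34.1% and 28.6%, beside 31.1% of flank matches. At the second base before it, C stood in 25.3% and 17.2%, and G was more frequent, with 35.9% and 30.7%. After the repeat, G stood at position 16 in 33.6% and 23.5% and at position 18 in 33.2% and 25.4%. The 5′ extension known for PPAR-RXR elements is AACT. The Plin2 element 20.6 kb upstream carries these letters, and no test was made across matches, since neighbouring elements and repeat copies are not independent.

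The rule let mismatches fall anywhere in the hexamers, and they did not fall evenly. The consensus base was kept most at position 6, the last base of the 5′ hexamer, in 96.8% of the DR1 regions (interval 93.5 to 98.7), beside 90.7% of genome matches. It was kept least at position 4 (72.4%, beside 79.2%) and position 11 (75.6%, beside 70.7%), the T of either hexamer. Position 1 kept A in 81.1% beside 88.8%, with G in 14.3% beside 5.2%. The most frequent variant 5′ hexamers were GGGTCA in 21 regions, AGGGCA in 20 and AGGTGA in 16. In the 3′ hexamer, AGTTCA was found in 16 regions, as many as GGGTCA, with AGGGCA also in 16. Of the elements shown, those of Trim25, Tcf7l2 and the distal Plin2 site carry AGTTCA as the 3′ hexamer.

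**Figure D2:**
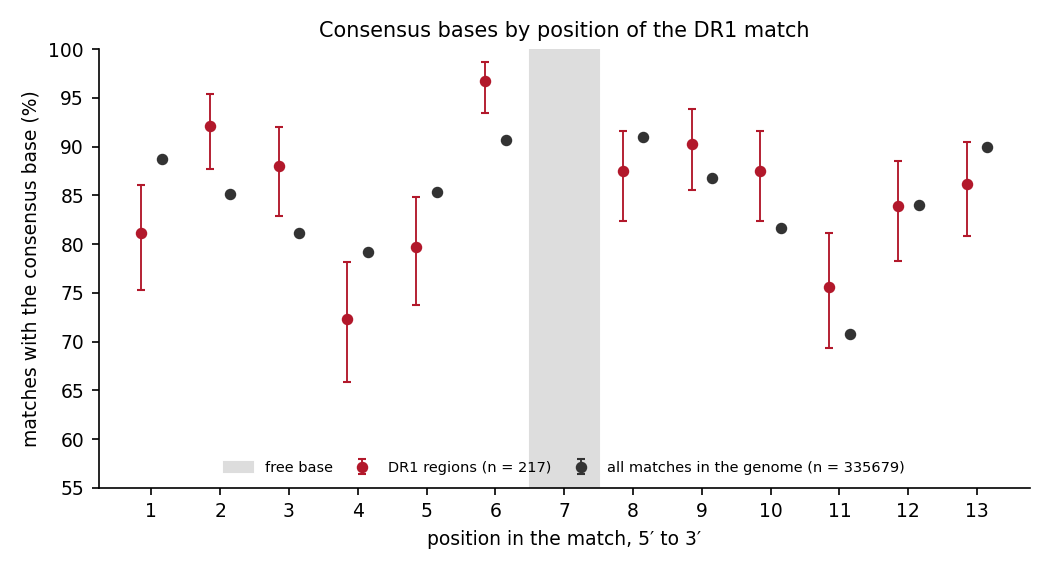
Share of matches that carry the consensus base (y, %, axis from 55) at each position of the DR1 match (x, 5′ to 3′; position 7 is the free base), for the 217 DR1 regions and all 335679 matches in the genome, with 95% exact binomial intervals for counting error. In the DR1 regions the share was highest at position 6 (96.8%) and lowest at position 4 (72.4%).

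The position of the match was compared between the WT libraries. The match centre lay a median of 22 bp (interquartile range 11 to 34) from the summit that the rule used, which is bounded by the rule. The summit of the other WT library was not used, and the match lay a median of 85 bp from it (interquartile range 32 to 148). In 78 regions (35.9%, interval 29.6 to 42.7) the match centre was within 50 bp of that summit too, and 76 regions held a whole match within 50 bp of both summits. The WT summits were themselves a median of 83 bp apart in DR1 regions and 97 bp in other shared regions, and this is the spread within which an element can be placed. The Itpkb element lay 12 bp from both summits and the Baz1b element 18 and 11 bp, whereas the Abcd2 element lay 30 bp from the WT A summit and 317 bp from that of WT G. WT A supplied the summit that was read in 134 DR1 regions (61.8%) and in 50.4% of other shared regions, a share that the rule itself bears on, since it took the summit with the higher −log10 q.

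**Figure D3:**
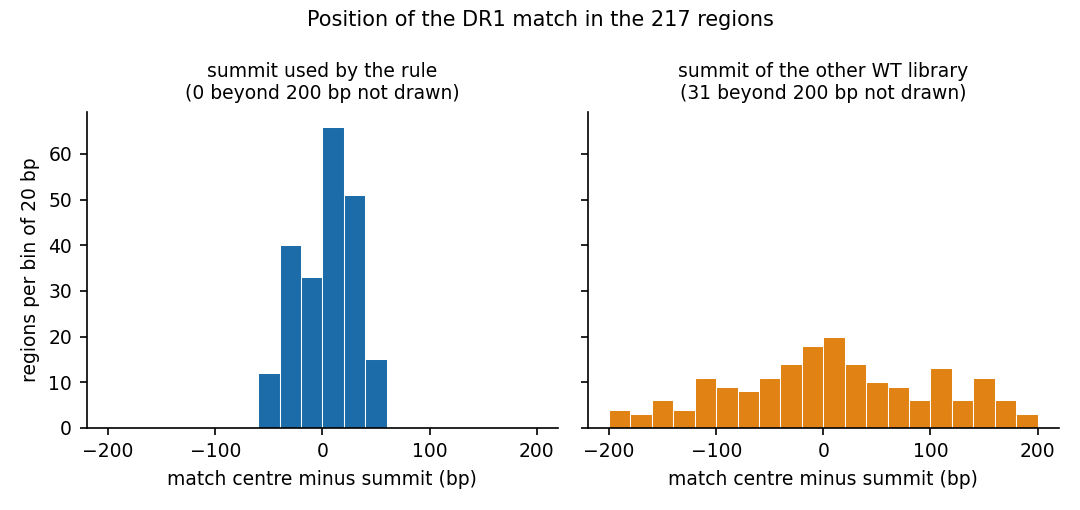
Number of DR1 regions (y, per bin of 20 bp) by the distance of the match centre from the summit (x, bp), for the summit that the rule used (left) and for the summit of the other WT library (right). The left distribution is bounded by the rule, and the right one has a median absolute distance of 85 bp, with 31 regions beyond the 200 bp drawn.

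Binding strength in WT was described by the fold enrichment over input at the summit, which the rule did not use. It comes from the same pileup and background as −log10 q, by which the rule picked the summit. The values are therefore not fully independent of the rule. In WT A the median was 7.89 (interquartile range 6.32 to 9.85) in the 217 DR1 regions and 6.72 (5.93 to 8.29) in the other shared regions, a difference of 1.18. In WT G the medians were 7.74 (6.67 to 9.67) and 7.57 (6.23 to 9.03), a difference of 0.171. At background, 1 fragment changes the fold enrichment by 0.392 in WT A and by 0.645 in WT G, so the difference in WT G was smaller than the worth of 1 fragment. The DR1 regions had a median of 19 fragments at the summit in WT A and 12 in WT G, derived from the deposited values. The medians were 7.11 and 7.74 for regions with 3 mismatches, 7.11 and 7.74 for those with a match up to 100 bp away, and 6.72 and 7.19 for the 2699 with at least 4 mismatches. The WT G difference was 1.09 for the regions with at most 1 mismatch, and 1.06 when members were chosen at the WT A summit. It was 0.143 when they were chosen at the WT G summit, where the WT A difference was 0.784. With 25 bp to each side the WT G difference was 0.139, and with 100 bp 0.414. Requiring 50% of both peaks gave 0.645, and −log10 q of at least 3 gave 0.633. Regions are not replicates, and no test was made. Across the 217 regions, fold enrichment in WT A and WT G had a Pearson r of 0.689 and a Spearman rho of 0.565, given as a description, since the libraries share the input.

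The strongest element was that of Cebpb, which encodes a basic leucine zipper factor of myeloid cells. Its fold enrichment was 21.2 in WT A and 19.99 in WT G, resting on 53 and 30 fragments. Trim25, a ubiquitin ligase of antiviral signalling, followed with 18.9 and 19.3. Tacc2, a centrosomal protein gene, had 17.2 and 17.4, and Ext1, a heparan sulfate polymerase, 16.5 and 18.7. Sept9, a septin, had 15.3 in WT A and 16.8 in WT G. Pdk4, the kinase that shuts off pyruvate dehydrogenase when cells burn fatty acids, had 14.95 and 16.1. The other regions among the 10 highest by rank in both lists were near Susd1 (13.4 and 19.9), Klf6 (12.99 and 14.2), Prss30 (12.2 and 16.8) and Nt5c2 (11.8 and 15.5). All 10 of these elements had 2 mismatches, which is near the share over all members, 174 of 217 (80.2%).

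The 3 elements with no mismatch lay on both sides of the members' medians. Rassf5, which encodes a Ras-binding adaptor of leukocyte adhesion, had 9.85 in WT A and 9.03 in WT G. The site nearest to Hic1, a transcriptional repressor that responds to retinoic acid, had 6.11 and 9.24. Rrbp1, a ribosome-binding protein of the endoplasmic reticulum, had 11.0 and 6.45. None of the 3 had a KO peak. For the 43 regions with at most 1 mismatch the median fold enrichment was 7.99 in WT A and 8.69 in WT G, and for the 174 with 2 mismatches it was 7.75 and 7.74. Regions with 1 mismatch included those of Cd9, a tetraspanin (12.99 in WT A and 9.24 in WT G), Abcd2, a peroxisomal importer of very long-chain fatty acids (12.6 and 12.2), Itpkb, an inositol trisphosphate kinase (11.8 and 11.6) and a site 150 kb from 4933412E24Rik (11.8 and 9.67). Lyzl1, the nearest gene of an intergenic site on chromosome 18, had 11.4 and 15.5. Others of the 15 strongest with at most 1 mismatch, near 4931440F15Rik, Enc1, Zfp395, Tcf7l2, Shld1, Themis2, Baz1b and Ankrd11, lay between 7.89 and 11.0 in WT A and between 9.58 and 14.2 in WT G.

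**Figure D4:**
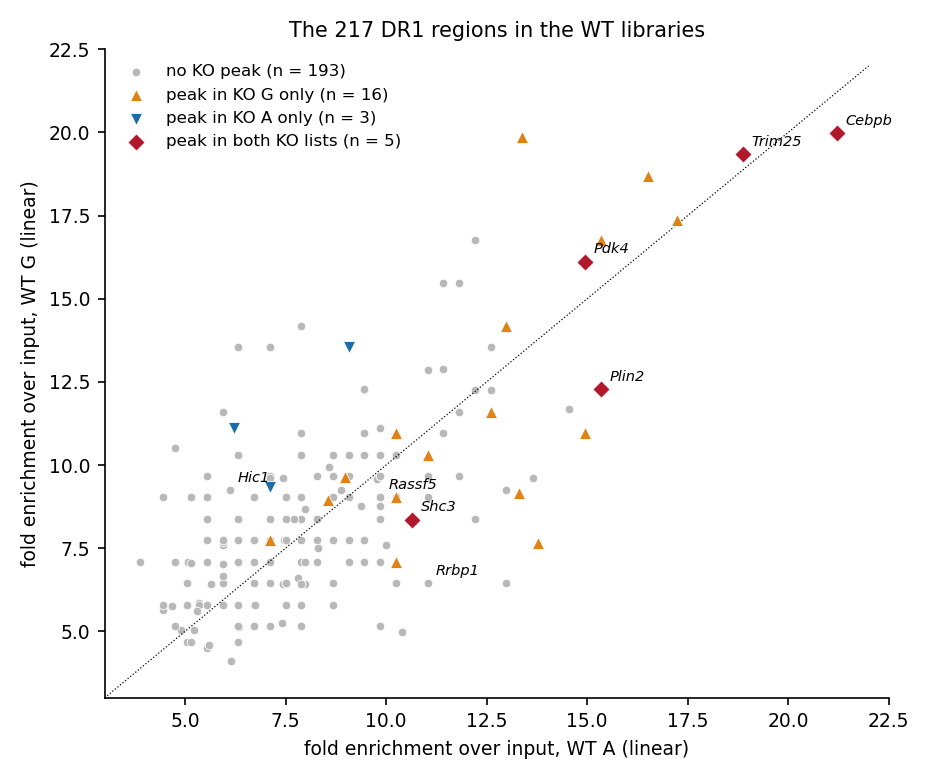
Fold enrichment over input in WT A (x) and WT G (y), both linear, for the 217 DR1 regions, marked by the KO lists in which they had a peak; the dotted line marks equal values, and names are given for regions with a peak in both KO lists and for those with no mismatch. The 5 regions with a peak in both KO lists include the strongest, near Cebpb (21.2 and 19.99) and Trim25 (18.9 and 19.3), and the rows of points are single fragments.

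The next question was whether binding at these regions was lost in the KO. A peak in either KO list overlapped 24 of the 217 DR1 regions (11.1%, interval 7.22 to 16.0), while over all shared regions the share was 5.87%, and over the other shared regions 5.52%. KO A had a peak in 8 (3.69%, beside 2.16% of all shared regions), KO G in 21 (9.68%, beside 5.35%) and both in 5 (2.30%, beside 1.64%). The remaining 193 DR1 regions had no KO peak. By mismatches the share was 3 of 43 (6.98%, interval 1.46 to 19.1) at none or 1, where KO A had no peak, and 21 of 174 (12.1%, interval 7.63 to 17.9) at 2. Outside the rule it was 9.27% at 3 mismatches and 4.82% at 4 or more, and 17 of 160 (10.6%, interval 6.31 to 16.5) where a match lay up to 100 bp away. A missing peak gives no level, and the lists held no read counts, so the fraction of binding kept at the 193 regions was not measured.

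The DR1 regions with a KO peak tended to be the stronger ones in WT. Their median fold enrichment was 12.8 in WT A and 11.0 in WT G, beside 7.50 and 7.74 for the DR1 regions with no KO peak, and 7.12 in KO A (8 regions) and 7.23 in KO G (21 regions). Of the 10 strongest DR1 regions, 8 had a KO peak, Prss30 and Nt5c2 being the exceptions. Nt5c2 tied for the last place with the distal Plin2 site, which had a peak in both KO lists. Among shared regions at or above the 75th percentile of −log10 q in WT A, 21 of 93 DR1 regions (22.6%, interval 14.6 to 32.4) and 147 of 764 others (19.2%, interval 16.5 to 22.2) had a KO peak. Below it the counts were 3 of 124 (2.42%) and 30 of 2442 (1.23%). With the same split by WT G they were 19 of 84 (22.6%, interval 14.2 to 33.0) and 140 of 988 (14.2%, interval 12.1 to 16.5), and below it 5 of 133 (3.76%) and 37 of 2218 (1.67%). The KO share moved with WT strength, the intervals of both kinds of region overlapped at or above these percentiles, and the part of strength in the difference was not tested.

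**Figure D5:**
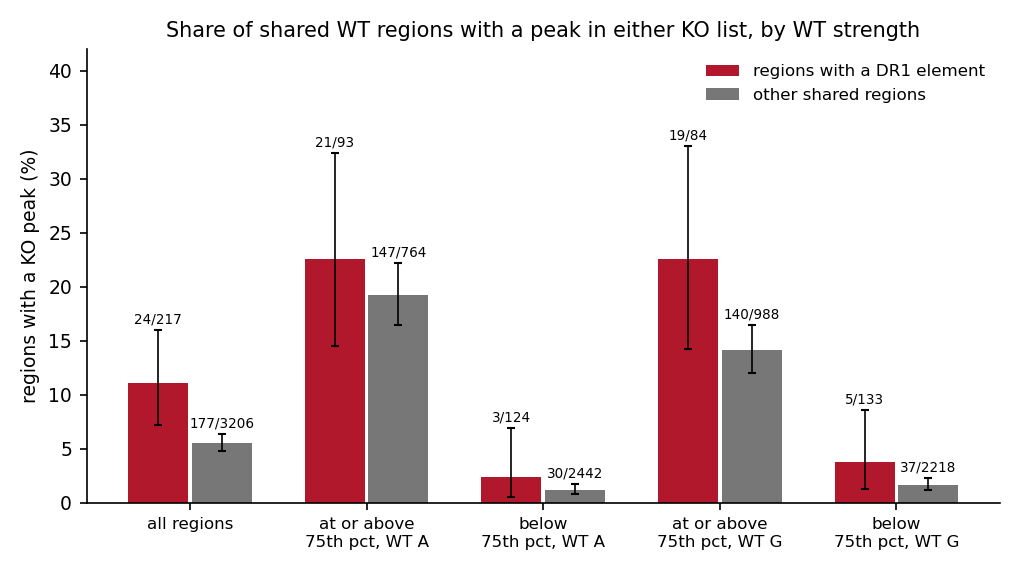
Share of regions with a peak in either KO list (y, %) for DR1 regions and other shared regions, over all regions and above or below the 75th percentile of −log10 q in WT A or in WT G; bars give the share, whiskers its 95% exact binomial interval for counting error, and labels the counts. The overall shares are 11.1% and 5.52%, and at or above the WT A percentile they are 22.6% and 19.2%.

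At the 5 regions with a peak in both KO lists, fold enrichment in the KO was below both WT values at 4. Cebpb had 12.2 in KO A and 16.0 in KO G, against 21.2 for WT A and 19.99 for WT G. Trim25 had 12.2 and 10.8, against 18.9 and 19.3. Pdk4 had 7.12 and 9.30, against 14.95 and 16.1. The distal Plin2 site, 20.6 kb from the gene of a lipid droplet coat protein, had 7.12 and 7.23, against 15.3 and 12.3. Shc3, a signalling adaptor, had 8.72 and 8.16, against 10.6 and 8.36, so that its KO A value lay above its WT G value. The WT and KO values overlapped at Shc3 and did not overlap at the other 4. Among DR1 regions with a KO A peak 7 of 8 had a lower value in KO A than in either WT library, as had 19 of 21 with a KO G peak (all but Arid5b and Gk, named after their values were seen), beside 83.3% and 87.0% of the other shared regions with such a peak. A peak must pass the threshold of its own list, and the libraries differ in depth, so these values are described and not tested.

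The KO A peaks without a KO G peak were at 3 regions, named after their values were seen: Lpin1 (6.10 for KO A, beside 6.22 and 11.1 for WT A and WT G), a phosphatidate phosphatase of triglyceride synthesis, Olfr279 (6.61, 7.10 and 9.35), an olfactory receptor gene, and Plcb1 (6.61, 9.07 and 13.5), a phospholipase. KO G peaks without a KO A peak were at 16, and KO G fold enrichment was, among others, 9.30 at Ext1, 7.23 at Enc1, 7.17 at 4931440F15Rik, 6.72 at Sept9, 5.68 at Klf6 and Susd1 and 5.64 at Tacc2. Where DR1 regions had a KO G peak, its summit lay within 50 bp of the WT summit in 16 of 21 (76.2%, interval 52.8 to 91.8), and in 64 of 162 (39.5%, interval 31.9 to 47.5) of the other shared regions. For KO A these shares were 4 of 8 and 31 of 66 (47.0%).

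Each list was also read on its own, counting peaks with a DR1 match within 50 bp of their own summit. Of 4751 WT A peaks 287 had one (6.04%), as had 326 of 9766 WT G peaks (3.34%), 9 of 83 KO A peaks (10.8%, interval 5.08 to 19.6) and 28 of 208 KO G peaks (13.5%, interval 9.14 to 18.9). The mean number was 306.5 ± 27.6 (SD, n = 2) for WT lists and 18.5 ± 13.4 (SD, n = 2) for KO lists, which gave a ratio of 16.6, and every WT list held more than every KO list. An exact permutation test over the 4 libraries (two-sided) gave p = 0.3333, the smallest that 2 against 2 allows, so this design cannot reach 0.05. The share of the list ran the other way, averaging 4.69% ± 1.91 (SD, n = 2) for WT and 12.2% ± 1.85 (SD, n = 2) for KO, and the same exact test gave p = 0.3333. Of these peaks, 5 of 9 in KO A and 15 of 28 in KO G lay in a DR1 region, and 4 and 12 in another shared region. With at most 1 mismatch, WT A had 64 such peaks (1.35% of its list) and WT G 57 (0.584%). KO A had 0 of 83, which allows up to 4.35%, and KO G had 3 of 208 (1.44%, interval 0.298 to 4.16). These shares therefore showed no loss of such elements from the KO lists. Without KO A the ratio was 10.9 and without KO G it was 34.1.

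Most DR1 regions were intronic or intergenic. Of the 217, 110 were in introns (50.7%, beside 50.8% of the other shared regions), 77 were intergenic (35.5%, interval 29.1 to 42.2, beside 31.2%) and 20 were in promoters, taken to begin 1 kb before a TSS and to end 100 bp after it (9.22%, interval 5.72 to 13.9, beside 10.9%). Transcript ends held 7 and exons 3. The median distance to the nearest protein-coding TSS was 20.02 kb, beside 15.6 kb, and 91.2% were within 100 kb of it. No promoter region of the 20 had a KO peak, which allows a share of up to 16.8%, beside 18 of 350 promoters (5.14%) without the element. Of the intergenic DR1 regions 12 of 77 had one (15.6%, interval 8.32 to 25.6), beside 61 of 1001 other shared regions (6.09%, interval 4.69 to 7.76). Of the intronic ones it was 11 of 110 (interval 5.10 to 17.2%), beside 86 of 1630 (5.28%, interval 4.24 to 6.48). Baz1b, which encodes a chromatin remodelling subunit, had its element 0.134 kb upstream of the TSS, with 9.85 in WT A and 9.67 in WT G.

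The 217 regions were nearest to 211 protein-coding genes of the 21728 annotated, and all shared regions to 1933. A pair of DR1 regions had the same nearest gene in 6 cases, named after their values were seen. Nceh1, a cholesterol ester hydrolase of macrophages, had both in its introns (7.11 and 12.2 in WT A, 9.61 and 8.38 in WT G). Pdcd1lg2, which encodes the checkpoint ligand PD-L2, also had both in introns (8.30 and 12.6 in WT A, 7.52 and 13.5 in WT G). Nrip1, a corepressor of nuclear receptors, was at least 157 kb from its pair, and Bcl2l14 was the nearest TSS of a pair in introns of Etv6. The others were Nt5c2 and Plin2.

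Gene lists of the receptors that pair with RXR were counted by their nearest regions. Over all protein-coding genes, 8.90% were nearest to a shared region and 0.971% to a DR1 region. The lists were chosen with earlier results of these data known. Of 32 PPAR targets, 17 were nearest to a shared region and 2, Plin2 and Pdk4, to a DR1 region, and 3 of their 34 shared regions carried the element (8.82%, where all shared regions gave 6.34%). The proximal Plin2 site, 2.3 kb upstream of the TSS, had 9.85 in WT A and 10.3 in WT G and no KO peak, whereas the distal site had a peak in both KO lists. Of 14 LXR targets, 8 had a shared region and 2 a DR1 region, in 2 of 21 regions (9.52%). Abca1, the cholesterol exporter, had its element 0.7 kb from the TSS, with 6.32 in WT A and 7.09 in WT G, and Mylip, a ubiquitin ligase that degrades the LDL receptor, had 5.64 and 6.43. Of 15 genes of retinoid metabolism and RAR targets, 4 had a shared region and 2 a DR1 region, in 2 of 24 regions (8.33%). Rara, the retinoic acid receptor, had 7.89 in WT A and 11.0 in WT G, and the other was the perfect element near Hic1. Rara was also the single one of 25 nuclear receptor genes with a DR1 region, and 5 of the 25 had a shared region. Each of these shares rests on at most 3 DR1 regions.

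Of 21 genes of macrophage transcription factors, 12 had a shared region, and 4 of their 86 regions were DR1 regions (4.65%, beside 6.34% of all shared regions): Cebpb, Klf6, Tcf7l2 and Bhlhe40. Cebpb had 15 shared regions and Klf6 had 16, with 1 DR1 region each. Klf6, a zinc finger factor of macrophages, had 12.99 and 14.2 in the WT libraries and 5.68 in KO G. Tcf7l2, an effector of Wnt signalling, had 9.76 in WT A and 9.58 in WT G. Bhlhe40, a basic helix-loop-helix repressor linked to AM proliferation, had 5.93 and 7.60. Of 26 AM genes, 16 had a shared region, and 1 of their 28 regions (3.57%, beside the same 6.34%) was a DR1 region, that of Tgfbr2, the TGFβ receptor, with 8.29 in WT A and 7.09 in WT G. Of 12 genes of monocytes and other tissue macrophages, 1 had a shared region (8.33%), near the 8.90% of all protein-coding genes. That region was not a DR1 region.

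Other motifs were searched in the same 101 bp windows without mismatches, on both strands, and they may overlap the DR1 letters. C/EBP (TTGCNNAA) stood in 15 DR1 regions (6.91%, interval 3.92 to 11.1), in 11.2% of the other shared regions (interval 10.2 to 12.4) and in 4.19% of the flank windows. Of the 43 regions with at most 1 mismatch none held it, which allows a share of up to 8.22%. PU.1 (GAGGAAGT) stood in 4.15% and 4.40%, RUNX (TGTGGTT) in 4.15% and 6.05%, and AP-1 (TGANTCA) in 10.1% (interval 6.46 to 14.9) and 7.33% (interval 6.45 to 8.29), beside 0.876%, 2.45% and 3.55% of the flank windows. Any of these 4 stood in 24.0% of the DR1 regions and 26.2% of the others. STAT5 (TTCNNNGAA) stood in 2.76% and 3.84%, RBPJ (GTGGGAA) in 0.922% and 2.34%, the E-box (CACGTG) in 3.23% and 1.72% and the CTCF core (CCCTC) in 24.0% and 20.5%, beside 3.37%, 2.10%, 1.34% and 23.3% of the flank windows. The SMAD palindrome (GTCTAGAC) was in none of the 217, which allows a share of up to 1.69%, and in 0.218% of the others. A match in the letters is not a bound site.

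Repeats of the same hexamer with other spacings, were also searched, with at most 2 mismatches. With 5 free bases (DR5) the shares were 6.91% (interval 3.92 to 11.1) of DR1 regions and 2.28% of the other shared regions, with 2 (DR2) 7.83% (interval 4.63 to 12.2) and 2.18%, and with none (DR0) 6.45% (interval 3.57 to 10.6) and 1.72%. DR3 stood in 4.15% and 1.87%. DR4, the LXR-RXR spacing, stood in 2.76% (interval 1.02 to 5.92) and 1.84% (interval 1.40 to 2.37), the one spacing besides DR3 whose intervals overlapped. A second repeat can share a hexamer with the DR1 match, so these counts are not independent of the rule and were given no test.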

How the data were processed

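Members and gene lists were chosen with earlier results of these data known. The authors trimmed reads with cutadapt, aligned them to mm10 with Bowtie2, filtered them with SAMtools and called peaks per sample against the input with MACS3 (q threshold 0.05), without pooling replicates. The deposited fold enrichment is a ratio of ChIP pileup to local background, 1 being added to both. Deposited values of −log10 p and −log10 q are those at the summit, the deposited score is a rescaled −log10 q, and the deposited summit is a position within the peak. The lists hold no read counts, and the input file was not used here.

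WT peaks overlapping by 1 bp were merged. Sequences came from GRCm38.p6, and regions were annotated with GENCODE M21 and credited to the nearest protein-coding TSS. Fragments at each summit were solved from fold enrichment and −log10 p, taken as a Poisson tail (within 0.003), in all peaks. Shares carry 95% exact (Clopper-Pearson) intervals, which cover counting error only, and zero counts their upper bound. Genotypes were compared by an exact permutation test. Steps were tested on simulated data. Software was pysam 0.24.0, scipy 1.17.1, pandas 2.3.3, matplotlib 3.10.9 and numpy 2.4.6 under Python 3.11.15.

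Named regions were the 15 strongest with at most 1 mismatch, the 10 strongest by summed rank, those with a peak in both KO lists, and those nearest to a listed gene. Alternatives changed the mismatches, window, overlap, q threshold, summit, promoter window and libraries. Of these, 1 region is not reported here.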

Additional observations from a re-analysis of the deposited data

How the results depend on the processing

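Of 84 alternatives over 10 results, 23 lay outside the 95% interval of the reported share or median or, for the number of members, outside a fixed factor. For the WT to KO ratio direction alone was compared, and no difference or ratio reversed. With at most 1 mismatch there were 43 members (1.26% of shared regions), 6.98% had a KO peak, the WT G difference in median fold enrichment was 1.09, the median distance to the other summit was 109 bp, A was the free base in 48.8% and 0 windows (0%) held C/EBP. With 25 bp to each side there were 98 members (2.86%), the WT G difference was 0.139 and C/EBP stood in 1.02%; with 100 bp there were 377 (11.0%) and it stood in 18.04%, in a window of other length. Requiring 50% of both peaks left 105 members, of which 16.2% had a KO peak, with a median distance of 63 bp. At the WT A summit the WT G difference was 1.06; at the WT G summit 5.05% were members and it was 0.143. Promoters that reach 3 kb to either side of a TSS held 24.9%. Leaving out a WT library gave from 287 to 326 members, and leaving out a KO library a KO share of 3.69% (without KO G) to 9.68% (without KO A). The WT to KO ratio of DR1 peaks (16.6) ranged from 10.9 (without KO A) to 34.1 (without KO G) when a library was left out, and was 40.3 with at most 1 mismatch. With a replicate block, pairing libraries by letter, it was 19.3; the letters are not known to mark a shared batch or animal, and 2 pairs cannot reach 0.05 in an exact paired test. The causes of these moves were not tested. The lists hold few fragments per peak, which limits the summit position and any value in a library without a peak.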
